A study of Mus musculus with 4 samples.

Results

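The Hoxb cluster of the mouse lies on chromosome 11 and holds Hoxb1 and, on one side of it, the 8 genes described here, Hoxb2, Hoxb3, Hoxb4, Hoxb5, Hoxb6, Hoxb7, Hoxb8 and Hoxb9. These 8 were taken by name from the 15803 genes for which the deposited RNA-seq table gives values, and all 8 reached the minimum set for testing, 10 normalised counts on average over the libraries. The RNA came from the second heart field (SHF) region, dissected out of mouse embryos at E8.5. SHF cells are progenitors that feed into both poles of the elongating heart tube. The 2 WT libraries came from wild-type embryos and the 2 Hoxb1Mu libraries from embryos labelled as Hoxb1 mutant, which the study describes as Hoxb1-/-. Neither group received a treatment, and no strain, sex, litter or batch was given for either. Per the methods of the study the RNA of several embryos of a genotype was pooled for each library, so a library is a pool and not an animal, and nothing says how far the pools of a group were independent.

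Hox genes encode homeodomain transcription factors that give cells along the body axis their positional identity. Within a cluster they are switched on in the order in which they lie, so that genes next to Hoxb1 are used early and far forward in the embryo, and genes at the Hoxb9 end later and nearer the tail. Retinoic acid and the Cdx factors act upstream of them, and Pbx and Meis proteins bind DNA together with many of their products. In the heart field, Hoxb1 marks the posterior progenitors. The comparison asks whether Hoxb2 to Hoxb9 differ in level between Hoxb1 mutant and wild-type embryos. The labels do not name the mutant allele, and the methods of the study list the reporter allele Hoxb1GFP under the name Hoxb1-. The mutation lies in the same cluster as the genes described here. Loss of the Hoxb1 protein and the changed DNA of the locus therefore cannot be told apart.

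On mm10 and the GENCODE vM21 annotation, all 9 genes are transcribed from the plus strand. Hoxb1 spans positions 96365752 to 96368256 and Hoxb9, the farthest of the 8, spans 96271457 to 96276595. Measured from the start of Hoxb1, Hoxb2 starts 15.2 kb away, Hoxb3 42.4 kb, Hoxb4 47.5 kb, Hoxb5 62.4 kb, Hoxb6 73.3 kb, Hoxb7 79.1 kb, Hoxb8 83.8 kb and Hoxb9 94.3 kb. The antisense gene Hoxb3os shares 52.9% of the exon bases of Hoxb3 and 27.3% of those of Hoxb2, and Hoxb5os shares 3.6% of those of Hoxb5. No exon base of the other 5 genes is shared with another annotated gene. Whether reads had been counted by strand is not given in the sources used here, so reads from Hoxb3, Hoxb2 and Hoxb3os cannot be told apart where their exons overlap.

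The genes are related in sequence through the homeobox, which encodes the DNA-binding homeodomain, and reads can be assigned to 1 gene only where the transcripts differ. Of all stretches of 50 bases in the transcripts, 51.39% of those of Hoxb3 and 25.94% of those of Hoxb2 also occur in Hoxb3os, 1.83% of those of Hoxb5 in Hoxb5os, and at most 0.84% of those of each of the other 5 genes in any other gene.

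Reads in listed genes numbered 31331595 to 34383760 per library, and 1 read was worth 0.943 to 1.06 normalised counts. Hoxb1 itself had 682 and 617 normalised counts in WT 1 and WT 2, and 137 and 167 in Hoxb1Mu 1 and Hoxb1Mu 2. For Hoxb1 the log2 ratio of mutant to WT was -2.09 ± 0.14 (SE), with a limma adjusted p of 0.0806 and a DESeq2 adjusted p of 2.73e-21, so both libraries labelled Hoxb1Mu had less Hoxb1 RNA than both WT libraries. The SHF markers Isl1, Tbx5 and Osr1 were present in all 4 libraries, between 211 and 1041 normalised counts. Yolk sac endoderm genes, with Apob, Ttr and Afp as defining markers, were read in all 4 libraries as well. All 11 of the list were lower in both Hoxb1Mu libraries, against 27.1% of all genes. Their summed level was 137835 and 129275 in WT against 86728 and 41979 in Hoxb1Mu. All 8 cardiomyocyte genes were higher in both, against 26.4% of all genes, with sums of 47626 and 47673 against 62985 and 74713.

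Along the cluster the 8 genes did not move as a block. Values below are normalised counts per library, means ± SD over 2 libraries, and log2 fold changes of Hoxb1Mu over WT on the log2(value + 1) scale ± SE from limma, whose p-values were adjusted by Benjamini-Hochberg over all 15760 genes tested. Hoxb3 and Hoxb9 were higher in both Hoxb1Mu libraries than in both WT libraries, Hoxb6 and Hoxb8 were lower in both, and Hoxb2, Hoxb4, Hoxb5 and Hoxb7 overlapped between the groups. For Hoxb9 this rested on the size factors, since WT 2 and Hoxb1Mu 1 each had 14 reads. None of the 8 passed an adjusted p of 0.05 in limma, and the share of all genes called was 0%. At an unadjusted p under 0.05, limma gave 2 of the 8, Hoxb3 and Hoxb6, against 18.6% of all genes. The 4 genes whose groups did not overlap compare with 53.5% of all genes, 26.4% higher and 27.1% lower in Hoxb1Mu. Both shares are those of a small list and were not tested. The median log2 fold change of the 8 was 0.01 and that of all genes tested was 6.1e-04. edgeR called none of the 8 on the recovered reads (0% of all genes), and neither did DESeq2 (4.72% of the genes to which it gave an adjusted p). DESeq2 gave no adjusted p to 4 of the 8, Hoxb5, Hoxb7, Hoxb8 and Hoxb9, through its filter on low counts, and without that filter it also called none (3.07% of all genes). An exact permutation test of 2 libraries against 2 cannot give a p below 0.333, so no single gene could pass by that test.

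**Figure D1:**
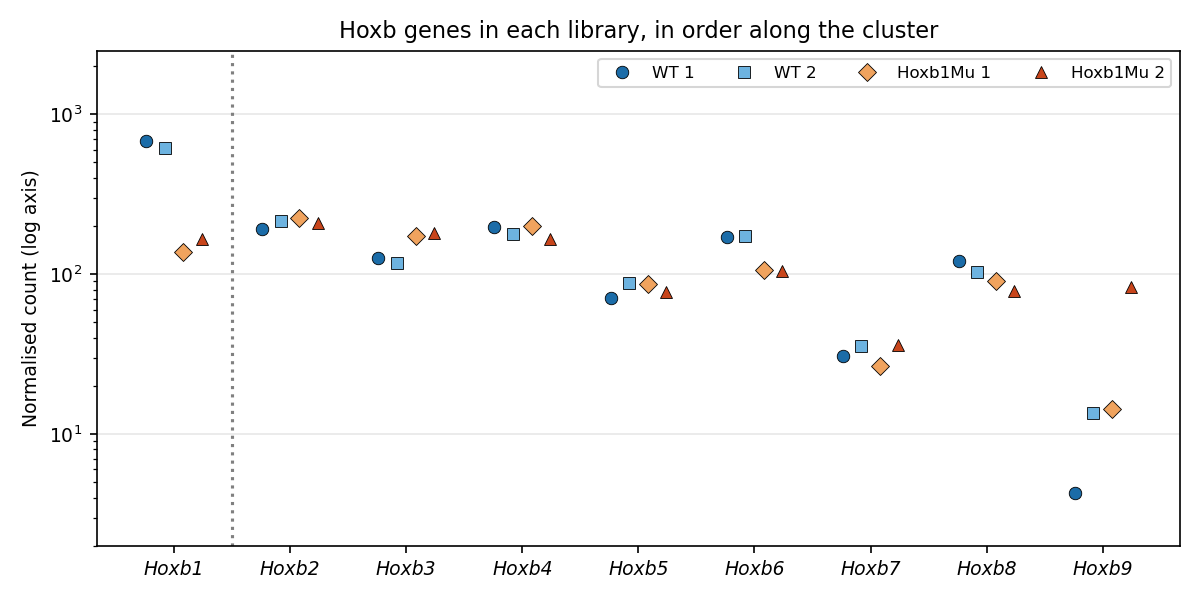
Normalised counts (log axis) of Hoxb1 and the 8 other Hoxb genes, ordered by distance from Hoxb1, with 1 symbol for each of the 2 WT and 2 Hoxb1Mu libraries. Hoxb1, Hoxb6 and Hoxb8 are lower in both Hoxb1Mu libraries, Hoxb3 is higher in both, and Hoxb9 is at 83.0 in Hoxb1Mu 2 against 4.25 to 14.4 in the other libraries.

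Hoxb6 had the lowest fold change of the 8. It is expressed in lateral plate mesoderm of the posterior body, and its regulatory sequence is used to drive Cre recombinase there. Its normalised counts were 170.0 in WT 1 and 174 in WT 2, against 106 in Hoxb1Mu 1 and 105 in Hoxb1Mu 2. The 2 libraries of each group lay close together and the groups lay far apart. In WT these were 160 and 181 reads (exact Poisson 95% intervals 136 to 187 and 156 to 209). In Hoxb1Mu they were 103 and 111 reads (84.1 to 125 and 91.3 to 134). Each interval is wider than the gap within its group, so the small SDs below understate the counting error. The means were 172 ± 2.91 and 105 ± 0.65, which is 1.64 times higher in WT, with a log2 fold change of -0.70 ± 0.15 (95% interval -1.08 to -0.33, limma adjusted p = 0.155). The fold change stayed between -0.72 and -0.69 whichever library was left out of the limma fit. With DESeq2 without its filter the adjusted p was 0.214, and with edgeR 0.158. In bulk tissue, fewer cells that express Hoxb6 and less Hoxb6 RNA per cell cannot be told apart. The 11 yolk sac endoderm genes moved in the same direction, though unlike Hoxb6 they differed between the Hoxb1Mu libraries. Of 10 genes of lateral plate and SHF mesoderm, 3 were lower and 2 higher with no overlap between groups, a share near that of all genes (53.5%), and the list summed to 11897 and 12688 in WT and 10733 and 10452 in Hoxb1Mu. The part of either tissue in the Hoxb6 values was not tested.

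Hoxb8, the next gene but 1 from Hoxb6 and known for roles in the spinal cord and in myeloid progenitors, was lower by a smaller amount. Its levels were 120.0 and 104 normalised counts in WT and 91.3 and 78.3 in Hoxb1Mu, so the groups did not overlap but the gap between them was about as large as that within each group. The log2 fold change was -0.40 ± 0.19 (95% interval -0.87 to 0.08, limma adjusted p = 0.331). Hoxb7, which lies between Hoxb6 and Hoxb8 and is best known from the nephric duct, was not lower with them. It had 30.8 and 35.6 normalised counts in WT and 26.7 and 35.8 in Hoxb1Mu, with a log2 fold change of -0.10 ± 0.31 (95% interval -0.85 to 0.65, limma adjusted p = 0.883). That interval also holds the point estimates of Hoxb6 and Hoxb8, so at 26 to 38 reads per library a reduction of their size was not detectable for Hoxb7.

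Hoxb3 was higher. It patterns the hindbrain and the pharyngeal arches and lies 42.4 kb from Hoxb1. It had 125 and 117 normalised counts in WT and 173 and 181 in Hoxb1Mu, and the groups did not overlap. By counting error alone, the exact Poisson 95% intervals of WT 1 (104 to 150) and Hoxb1Mu 1 (148 to 201) did overlap. The means were 121 ± 5.67 and 177 ± 5.52, 1.46 times higher in Hoxb1Mu, with a log2 fold change of 0.54 ± 0.15 (95% interval 0.18 to 0.91, limma adjusted p = 0.175). Leaving out any library kept it between 0.50 and 0.59 in limma. With DESeq2 without its filter the adjusted p was 0.403, and with edgeR 0.186. Its antisense neighbour Hoxb3os, which could share reads with it, had 78.6 and 123 in WT and 104 and 102 in Hoxb1Mu, with a log2 fold change of 0.06 ± 0.25 (limma adjusted p = 0.910). Summed over Hoxb3 and Hoxb3os, the levels were 204 and 240.5 in WT and 277 and 283 in Hoxb1Mu. With Hoxb2 added, which also shares exons with Hoxb3os, they were 396 and 455 in WT and 502 and 493 in Hoxb1Mu. Neither sum overlapped between groups, which was also so for 53.5% of all genes. Reads left out of counting because they matched several genes would be missing from both sums. The part of shared reads in the Hoxb3 values was therefore not tested. Of 7 hindbrain genes, 4 were higher and 1 lower in both Hoxb1Mu libraries (53.5% of all genes in either direction), and the list summed to 7219 and 7248 in WT and 7594 and 7880 in Hoxb1Mu. Their part in the Hoxb3 values was not tested.

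Hoxb2, the nearest neighbour of Hoxb1 and in the hindbrain a known direct target of the Hoxb1 protein, showed no difference beyond the spread between libraries. Its levels were 192 and 214 normalised counts in WT and 226 and 210 in Hoxb1Mu. The log2 fold change was 0.10 ± 0.14 (95% interval -0.23 to 0.43, limma adjusted p = 0.718), an interval that leaves out a reduction as large as that of Hoxb6. Egr2, which activates Hoxb2 in odd-numbered segments of the hindbrain, had 481 and 466 in WT and 732 and 667 in Hoxb1Mu. For Egr2, limma made no call (adjusted p = 0.151), and DESeq2 without its filter called it higher (adjusted p = 0.0149). Hoxb4, known in the hindbrain and for its effect on blood stem cells, had 197 and 178 normalised counts in WT and 201 and 167 in Hoxb1Mu. Its groups overlapped over their whole width, and the log2 fold change was -0.03 ± 0.16 (95% interval -0.42 to 0.36, limma adjusted p = 0.931). Hoxb5, which takes part in setting the position of the forelimb, had 71.2 and 88.5 in WT and 87.2 and 77.3 in Hoxb1Mu, a log2 fold change of 0.05 ± 0.21 (95% interval -0.47 to 0.57, limma adjusted p = 0.916). The 2 Hoxb1Mu values lay within the range of the 2 WT values.

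**Figure D2:**
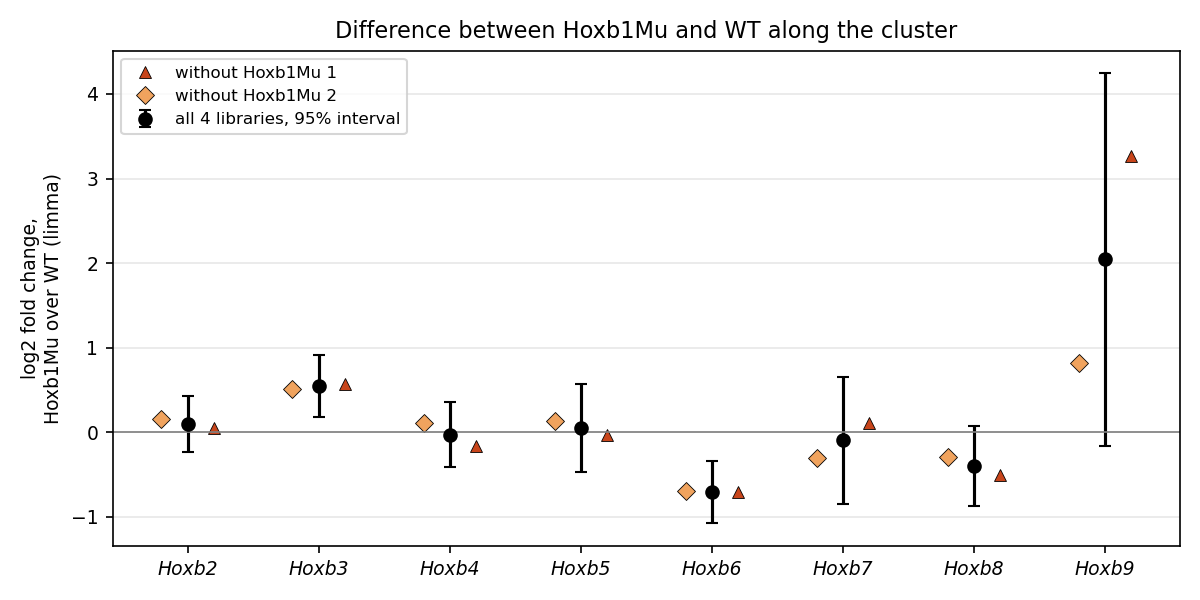
limma log2 fold changes of Hoxb1Mu over WT for the 8 genes in order of distance from Hoxb1, with 95% intervals from all 4 libraries (circles) and the values without Hoxb1Mu 1 (triangles) or without Hoxb1Mu 2 (diamonds). Hoxb3 and Hoxb6 have intervals that leave out 0 and move little between fits, and Hoxb9 goes from 0.82 without Hoxb1Mu 2 to 3.27 without Hoxb1Mu 1.

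Hoxb9, the member nearest the tail end and a patterning gene of the thoracic skeleton, was the only 1 of the 8 whose 2 mutant libraries differed many-fold. It was low in WT, with 4.25 normalised counts in WT 1 (4 reads, exact Poisson 95% interval 1.09 to 10.2 reads) and 13.5 in WT 2 (14 reads, 7.65 to 23.5). Hoxb1Mu 1 had 14.4 (14 reads, 7.65 to 23.5), as many reads as WT 2, and Hoxb1Mu 2 had 83.0 (88 reads, 70.6 to 108). These intervals cover counting error only. The log2 fold change over all 4 libraries was 2.04 ± 0.90 (95% interval -0.16 to 4.24, limma adjusted p = 0.292). Without Hoxb1Mu 1 it was 3.27 and passed (limma adjusted p = 0.02503, with 5.97% of all genes called in that fit), and without Hoxb1Mu 2 it was 0.82 (adjusted p = 0.764, 0.235% of all genes called). The same held for the count tools, chosen after seeing the data, with adjusted p = 0.0215 for edgeR (4.46% of genes called) and 0.0365 for DESeq2 (3.59%) without Hoxb1Mu 1. In these fits Hoxb1Mu is a single library, assumed to vary as the WT libraries do, so the call without Hoxb1Mu 1 describes Hoxb1Mu 2 against WT. The size of the difference also moved with the WT libraries, to 1.31 without WT 1 and 2.77 without WT 2 in limma (adjusted p = 0.625 and 0.429). WT 2 stood apart from WT 1 in other genes too, with red blood cell genes summing to 15877 against 514 and Hoxa9 at 42.3 against 7.44.

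In 2 noncoding genes of the cluster Hoxb1Mu 2 was again the highest library by far. For Gm53, a long noncoding RNA gene beyond Hoxb9, the WT libraries gave 2.12 and 3.85 normalised counts, Hoxb1Mu 1 gave 4.10 and Hoxb1Mu 2 gave 22.6. Hoxb5os, the antisense gene that spans Hoxb5 and Hoxb6, stood at 2.12 and 3.85 in WT, at 6.15 in Hoxb1Mu 1 and at 19.8 in Hoxb1Mu 2. Both had a mean under 10 and were not tested. A level in Hoxb1Mu 2 at least 2-fold above each of the other 3 libraries was found in 0.203% of all genes tested, 32 in number. Hoxb9 was the only 1 of the 8 among them, a criterion set after seeing its values. Hox genes of groups 9 to 13 in the other clusters met it in 7 of 11 cases, Hoxa9, Hoxa13, Hoxc9, Hoxc10, Hoxc11, Hoxd9 and Hoxd13, of which Hoxc9 and Hoxc11 had means too low for testing. Of the 14 genes of groups 1 to 8 there, Hoxa7 (28.3 in Hoxb1Mu 2, at most 5.77 elsewhere) and Hoxc6 (36.8, at most 6.73 elsewhere) met it too. Hoxa10, Hoxa11, Hoxd10 and Hoxd11 did not, and their highest value was in WT 2. Cdx4, an activator of Hox genes in the tail bud, stood at 1.06 and 1.92 in WT, at 3.08 in Hoxb1Mu 1 and at 144 in Hoxb1Mu 2. Of 13 caudal and tail bud genes 10 had values, 3 were higher and 3 lower in Hoxb1Mu with no overlap, again near the 53.5% of all genes, and they summed to 2304 and 2279 in WT, 2209 in Hoxb1Mu 1 and 2650 in Hoxb1Mu 2. None of the 10 was at 0, while Tbx6, Msgn1 and Hes7 had no values. Of the 10, 4 were highest in Hoxb1Mu 2. T, a tail bud marker, was at 472 and 457 in WT and 422 and 429 in Hoxb1Mu. Cdx2, another marker on the list, had 150 and 153 in WT and was lower in Hoxb1Mu 1 (116) but highest in Hoxb1Mu 2 (238). The part of caudal tissue in the Hoxb9 values was not tested.

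**Figure D3:**
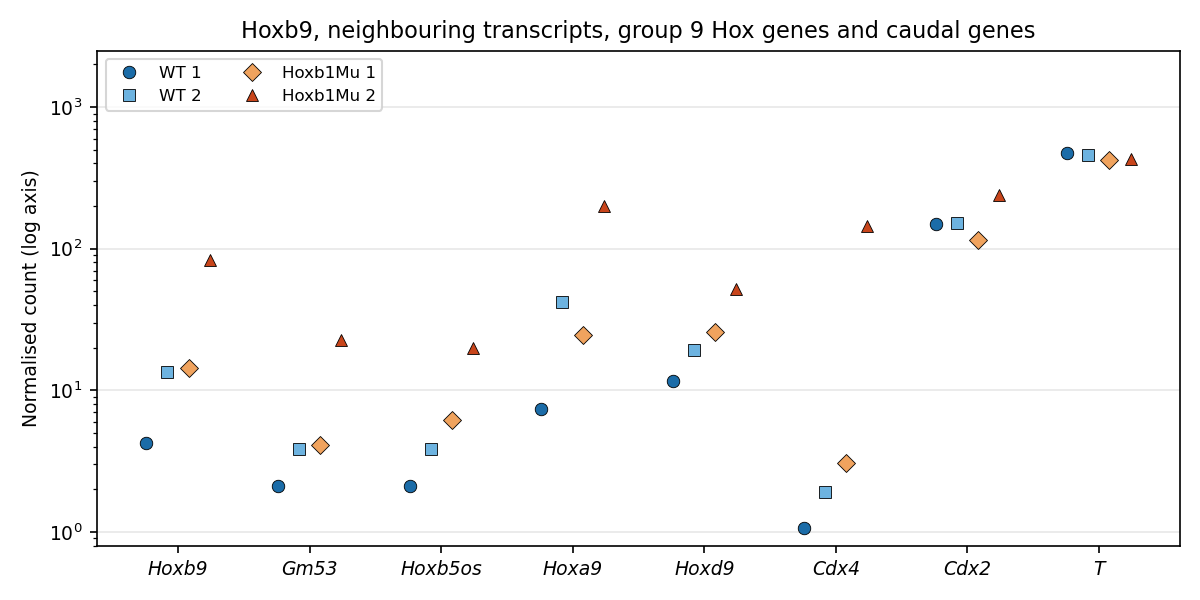
Normalised counts (log axis) of Hoxb9, of the noncoding genes Gm53 and Hoxb5os, of Hoxa9 and Hoxd9 and of Cdx4, Cdx2 and T, with 1 symbol for each of the 4 libraries. Hoxb1Mu 2 is the highest library for all but T, and Cdx4 reaches 144 there against at most 3.08 elsewhere.

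By the distance between centred log2 values over the 4 libraries, among 13015 genes with a mean of at least 50, the gene most like Hoxb9 was its paralogue Hoxa9, at 7.44 and 42.3 normalised counts in WT and 24.6 and 200.0 in Hoxb1Mu (distance 0.75). Next came the uncharacterised transcripts Gm36948 (1.34) and Gm16153 (1.44). For Hoxb6 the nearest were Herc3 (0.07), at 982 and 1058 in WT and 643 and 649 in Hoxb1Mu, then Cd59a (0.11) and Gdf2 (0.13). With 4 libraries many genes share a pattern by number alone, so these distances are a description.

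Per kilobase of annotated exon, a rough scale for comparing different genes, the order along the cluster did not follow distance from Hoxb1. The length takes in all annotated exons, whichever of them were expressed. In WT, Hoxb1 had 294 and 266 normalised counts per kb, and of the 8 genes Hoxb6 was highest at 87.6 ± 1.48. Then came Hoxb4 at 73.0 ± 5.13, Hoxb2 at 58.3 ± 4.50, Hoxb8 at 42.5 ± 4.34, Hoxb5 at 28.7 ± 4.39, Hoxb3 at 28.5 ± 1.33, Hoxb7 at 21.5 ± 2.19 and Hoxb9 at 3.44 ± 2.53. Hoxb5 and Hoxb3 were the only neighbours in this order whose WT libraries overlapped. In Hoxb1Mu the order was Hoxb4 at 71.7 ± 9.38, Hoxb2 at 62.5 ± 3.09, Hoxb6 at 53.5 ± 0.33, Hoxb3 at 41.7 ± 1.30, Hoxb8 at 32.2 ± 3.48, Hoxb5 at 29.5 ± 2.49, Hoxb7 at 20.2 ± 4.21 and Hoxb9 at 18.9 ± 18.9. There Hoxb8 overlapped with Hoxb5, and Hoxb7 with Hoxb9. Hoxb1 in Hoxb1Mu, at 59.2 and 71.9 per kb, was at the level of Hoxb2 and Hoxb4.

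**Figure D4:**
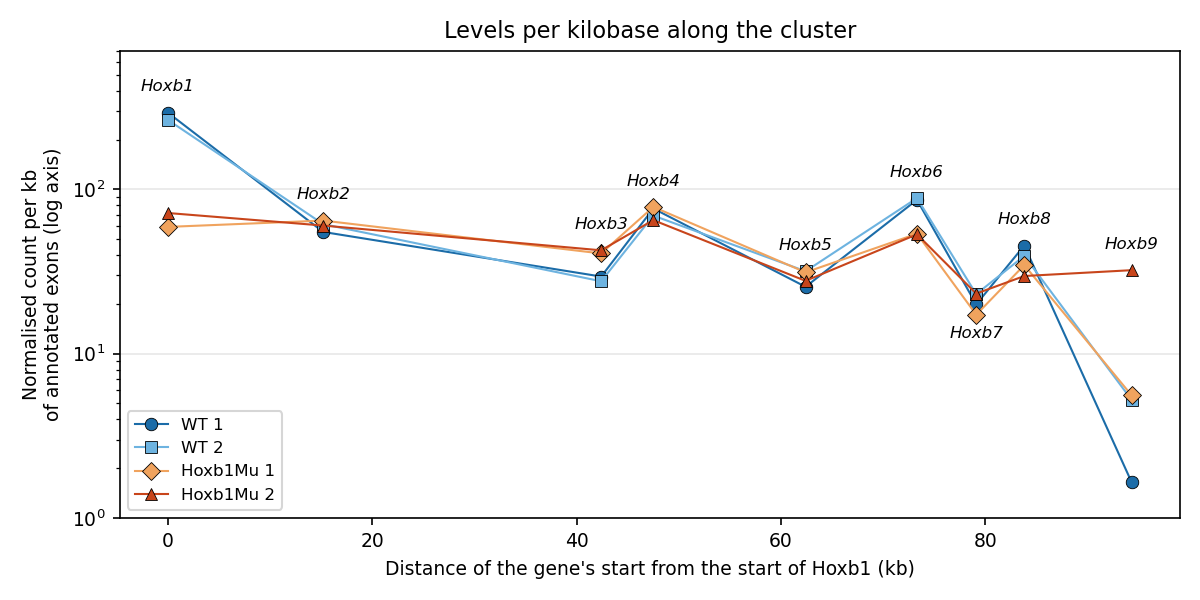
Normalised counts per kb of annotated exon (log axis) against distance of each gene's start from the start of Hoxb1 in kb, with 1 line for each of the 2 WT and 2 Hoxb1Mu libraries. The lines part at Hoxb1, Hoxb3, Hoxb6 and Hoxb9 and run close together at Hoxb2, Hoxb4, Hoxb5 and Hoxb7.

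With Hoxb1 left out, the genes went in both directions, and how their sum compared depended on the measure. The 8 genes summed to 340.5 and 347 normalised counts per kb in WT and to 326 and 334 in Hoxb1Mu, slightly lower in both. On unshared exon bases the sums overlapped, at 395 and 402 in WT and 398 and 406 in Hoxb1Mu. Without division by length they overlapped too, at 910.5 and 925.3 in WT and 924.9 and 937.6 in Hoxb1Mu. Hoxb9 made up 9.65% of the first sum in Hoxb1Mu 2, against 0.48% and 1.51% in WT and 1.71% in Hoxb1Mu 1. The share of Hoxb6 in it went from 25.4% and 25.6% to 16.5% and 15.95%. That of Hoxb3 went from 8.66% and 7.97% to 12.5% and 12.7% (from 15.8% and 14.6% to 21.8% and 22.3% on unshared exon bases). Where only exon bases not shared with Hoxb3os or Hoxb5os were taken as the length, Hoxb3 had 60.6 ± 2.83 per kb in WT and Hoxb2 80.2 ± 6.19. Hoxb2 then overlapped with Hoxb4 in WT, and Hoxb3 was above Hoxb8. In Hoxb1Mu they had 88.6 ± 2.76 (Hoxb3) and 86.0 ± 4.25 (Hoxb2), overlapping each other and both above Hoxb4 and Hoxb6. These positions of Hoxb2 and Hoxb3 in the order therefore depend on how shared reads were counted.

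Of the paralogues with the same numbers as the 8 genes, those of groups 2 to 5 were higher and most of those of groups 6 to 9 overlapped between groups. All 8 genes of groups 2 to 5 in the Hoxa, Hoxc and Hoxd clusters were higher in both Hoxb1Mu libraries than in both WT libraries, against 26.4% of all genes. They were Hoxa2, Hoxa3, Hoxa4, Hoxa5, Hoxc4, Hoxc5, Hoxd3 and Hoxd4, with a median log2 fold change of 0.79. Of Hoxb2 to Hoxb5 the same held for Hoxb3 only, a share near that of all genes, with a median of 0.07. Of the 5 paralogues of groups 6 to 9 tested, it held for Hoxd9 only, again near the share of all genes. This grouping was made after seeing the values, and the difference was not tested. Hoxa2 had 215 and 202 normalised counts in WT and 381 and 305 in Hoxb1Mu beside the near-equal values of Hoxb2, and Hoxd3 had 138 and 213 against 325 and 309, the direction of Hoxb3. limma called none of the 22 other Hox genes tested. At an unadjusted p under 0.05 it gave 6 higher and none lower, against 18.6% of all genes in either direction. DESeq2 with its filter gave an adjusted p to 7 of them and called Hoxa2 and Hoxd3. Over all genes with such a p it called 4.72%. Without the filter DESeq2 called neither (adjusted p = 0.0596 and 0.0624). Of the 9 Pbx, Meis and Pknox cofactors limma called none, and 4 had groups that did not overlap, 3 higher and 1 lower, which is a smaller share than the 53.5% of all genes. Of 13 upstream regulators DESeq2 without its filter called 3, all higher, against 3.07% of all genes called in either direction. They were Egr2 and the retinoic acid degrading enzymes Cyp26b1 (164 and 137 in WT, 399 and 317 in Hoxb1Mu) and Cyp26c1 (1970 and 2005 in WT, 2385 and 2662 in Hoxb1Mu). The enzyme Cyp26a1 of the same family did not rise with them. It had 849.9 and 933 in WT and 816 and 849.8 in Hoxb1Mu, and was not called.

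**Figure D5:**
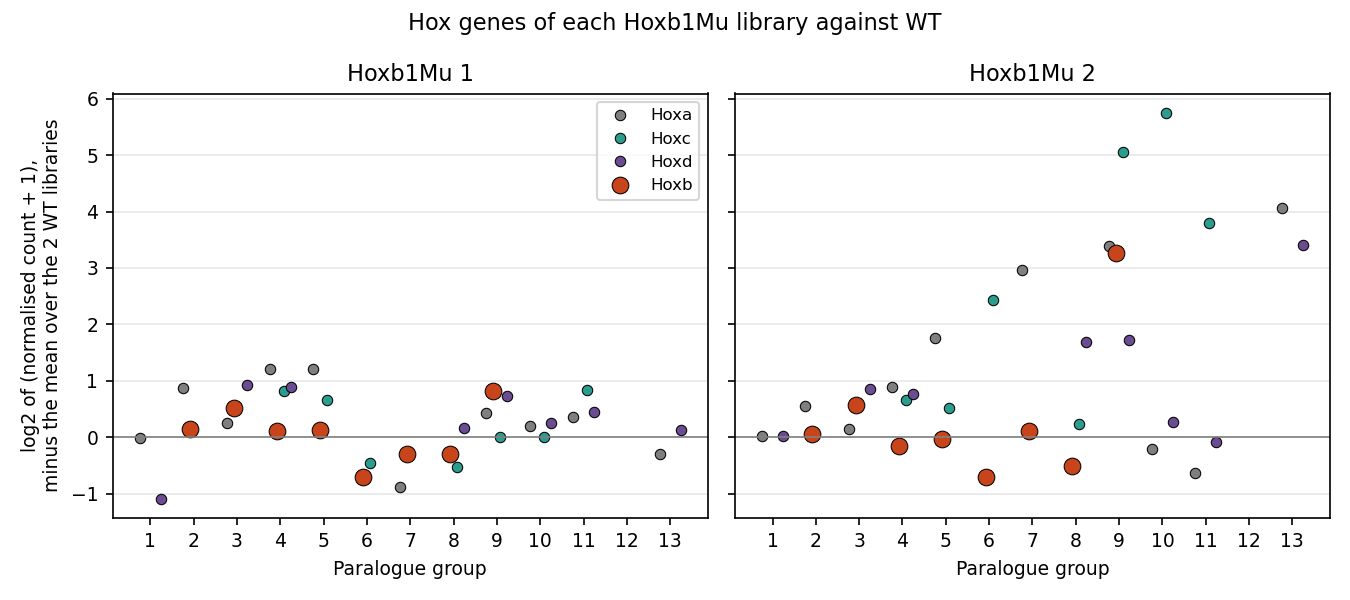
log2(normalised count + 1) of each Hox gene in Hoxb1Mu 1 (left) and Hoxb1Mu 2 (right) minus the mean of the 2 WT libraries, by paralogue group and coloured by cluster, with Hoxb genes as larger points. Hoxb6 lies at -0.70 and -0.71 in the 2 libraries, while Hoxb9 goes from 0.82 to 3.27. Several other genes of groups 9 to 13 are also high in Hoxb1Mu 2. Hoxa10 (-0.20), Hoxa11 (-0.63), Hoxd10 (0.28) and Hoxd11 (-0.09) are not.

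Promoter sequences were at hand for 2 of the 8 genes, Hoxb4 and Hoxb8, and for Hoxb1, from RefSeq on GRCm38.p6, from 250 bases before to 50 bases after the gene start. They set side by side Hoxb8, lower in both Hoxb1Mu libraries but not called, Hoxb4, whose groups overlapped, and the targeted gene. The lines run along the plus strand, with capitals at matches on either strand to a Hox-Pbx motif (TGATNNAT) and to a Cdx motif (TTTATG).
Hoxb1, chr11:96365508-96365807: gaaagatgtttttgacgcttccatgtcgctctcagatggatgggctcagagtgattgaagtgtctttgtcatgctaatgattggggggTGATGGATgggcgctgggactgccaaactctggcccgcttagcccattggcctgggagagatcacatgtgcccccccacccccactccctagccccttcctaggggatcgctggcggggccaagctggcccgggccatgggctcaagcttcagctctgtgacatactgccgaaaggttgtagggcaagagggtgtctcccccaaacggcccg
Hoxb4, chr11:96318017-96318316: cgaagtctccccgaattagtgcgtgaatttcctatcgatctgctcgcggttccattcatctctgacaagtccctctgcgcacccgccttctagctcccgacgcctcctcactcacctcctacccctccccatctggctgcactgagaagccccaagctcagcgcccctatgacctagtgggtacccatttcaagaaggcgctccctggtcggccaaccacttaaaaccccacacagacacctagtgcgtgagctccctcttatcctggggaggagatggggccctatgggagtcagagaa
Hoxb8, chr11:96281655-96281954: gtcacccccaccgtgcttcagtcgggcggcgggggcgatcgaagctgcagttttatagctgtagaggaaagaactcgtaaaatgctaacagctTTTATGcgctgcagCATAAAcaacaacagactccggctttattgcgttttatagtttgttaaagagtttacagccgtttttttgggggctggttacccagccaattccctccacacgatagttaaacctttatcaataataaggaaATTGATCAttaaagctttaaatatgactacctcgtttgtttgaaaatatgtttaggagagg
The Hox-Pbx letters occurred in 8.8% of the 32851 promoters of that length, and matched once in Hoxb1 at position -162 from the start and once in Hoxb8 at -11. The Cdx letters occurred in 11.9% of promoters and matched Hoxb8 at -157 and -143, on opposite strands. The core motif of retinoic acid receptors (AGGTCA, 16.3% of promoters) matched Hoxb4 once, at -81, and a Meis motif (TGACAG, 19.2% of promoters) matched none of these promoters. A match of letters is a description of the sequence and says nothing of binding in these embryos.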

How the data were processed

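RNA-seq had been performed on the microdissected SHF region of E8.5 embryos, with 2 libraries per genotype grouped by the genotype labels. Per the labels, SPIA amplification (Ovation RNA-seq V2, random and poly-T priming) gave the cDNA, which was made into libraries by the Ovation Ultralow protocol (a TruSeq kit in the study's methods). Without molecular identifiers, amplified reads cannot be taken as independent molecules, and the p-values measure only the spread between these libraries, which may be technical.

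Per the submitters' processing notes, bcl2fastq 2.17.1.14 made the read files, STAR 2.5.2 aligned them to mm10, and R 3.3.4 and DESeq2 followed. Reads per gene were counted with HTSeq. The methods of the study name an Ensembl release only for quantification by RSEM, a different route from the HTSeq counts of the notes, so the release behind the deposited values cannot be told. The deposited values are a normalised signal, in which the authors had scaled the read count of a gene by the size factor of its library. The other columns hold the authors' mean, log2 fold change, Wald statistic, p-value and adjusted p-value and were not used.

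In each library all values were found to be whole multiples of a single step (100% of values, within 0.001 of a read), so that whole reads could be recovered. Because the values are not counts as deposited, the main test was limma-trend (limma 3.58.1, R 4.3.3) on log2(value + 1) over 15760 genes (43 with a mean under 10 were left out), 2-sided, with Benjamini-Hochberg adjustment. edgeR 4.0.16 (quasi-likelihood, over the 15732 genes its own filter kept) and DESeq2 1.42.0 on the recovered reads, other pseudocounts, filters and scalings, and leaving out each library were alternatives. The scripts were tested on simulated data. GENCODE vM21 (mm10) gave exon lengths, overlaps and positions, with 97.4% of symbols matched. A spreadsheet had made dates of 13 symbols, and those genes were tested but not named.

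The 8 genes and all gene lists were chosen with earlier results of these data known. All 8 were named, with Hoxb1, the other listed genes between the protein-coding neighbours of the cluster, the paralogues whose groups did not overlap and the leading markers of each list. Other Hox genes, cofactors, lateral plate totals, Cyp26a1, Cyp26b1, Cyp26c1 and the genes high in Hoxb1Mu 2 were picked out after their values were seen. Other markers of neural tube, neural crest, somites, endothelium and red blood cells were measured, with 13, 10, 8, 7 and 6 tested. Of these, 8, 6, 4, 4 and 0 were higher in both Hoxb1Mu libraries, against 26.4% of all genes. Lower in both were 0, 1, 1, 1 and 1, against 27.1% of all genes.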

Additional observations from a re-analysis of the deposited data

How the results depend on the processing

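No paired analysis was possible because the replicate numbers follow accession order only. Of the 158 alternative values for the 8 genes, 137 kept direction and side of the threshold. Leaving out a library turned the direction of 3 genes, none near a call. The log2 fold change of Hoxb4 ranged from -0.16 to 0.10 in limma, of Hoxb5 from -0.11 to 0.20, and of Hoxb7 from -0.30 to 0.11. With the count tools, added after seeing the data, they ranged from -0.16 to 0.11, -0.11 to 0.21 and -0.32 to 0.11, with the turned values for Hoxb7 without WT 2 at 0.020 (DESeq2) and 0.025 (edgeR), for Hoxb5 without Hoxb1Mu 1 at -0.045 and -0.046, and for Hoxb4 without WT 1 at 0.0457 and 0.0458. Hoxb9 ranged from 0.82 to 3.27 in limma and from 0.67 to 3.52 with the count tools, and passed the threshold without Hoxb1Mu 1 in all 3 (limma 3.27, edgeR 3.19, DESeq2 3.22). The number of the 8 called ranged from 0 to 1. Their median ranged from -0.042 to 0.12, moving up without WT 2 (0.09) and without Hoxb1Mu 2 (0.12).

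Hoxb1 passed with DESeq2 with and without its filter (-2.09 in both) and, with a library left out, ranged from -2.23 to -1.95 in limma and from -2.24 to -1.96 with the count tools, DESeq2 giving -2.02 without WT 1 and -2.16 without WT 2. limma and edgeR called it without either Hoxb1Mu library, and not without either WT library. The number of all genes called was 556 with DESeq2 and 484 without its filter, and ranged from 0 to 941 in limma with a library left out (941 without Hoxb1Mu 1, 37 without Hoxb1Mu 2). Of the other Hox genes DESeq2 with its filter called 2, and limma called 0 to 5 with a library left out, the 5 without Hoxb1Mu 1 being Hoxa5, Hoxa9, Hoxa13, Hoxc10 and Hoxd13. The cause of these differences between fits was not tested. A mean of at least 50 left out Hoxb7 and Hoxb9, for which that alternative gives no value. With 2 libraries a group, only Hoxb3 and Hoxb6 of the 8 had intervals that left out 0.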
